A study of Mus musculus with 16 samples.

Results

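The genes described here are 38 mitosis and spindle genes, picked by symbol for their known roles in cell division. All 38 were found among the 23279 symbols of that table, each listed once, and all 38 passed the filter that left 10210 genes for testing (at least 1 FPKM in at least 4 libraries). FPKM is fragments scaled by transcript length and by the mapped fragments of the library, so levels can be compared between genes. The 16 libraries, 4 in each of 4 groups, were made from polyA RNA of murine pre-B cells, an early stage of the B lineage. The groups were labelled BCR-ABL NULL (-/-) with SHP2 WT (+/+), BCR-ABL NULL (-/-) with SHP2 NULL (-/-), BCR-ABL WT (+/+) with SHP2 WT (+/+), and BCR-ABL WT (+/+) with SHP2 NULL (-/-). BCR-ABL1 is the fusion kinase of Philadelphia chromosome leukaemia, and SHP2, encoded by Ptpn11, is a phosphatase that links receptors and kinases to RAS and ERK signalling. How BCR-ABL1 was introduced, how SHP2 was removed, and the strain, age and culture of the cells are not given in the labels. Nothing in the labels ties the 4 libraries of a group to different mice or different cultures. The p-values here therefore rest on library-to-library spread that may be technical.

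Entry into mitosis is driven by CDK1 bound to cyclin B, which CDC25 phosphatases activate and which Polo and Aurora kinases reinforce. The spindle checkpoint holds anaphase until every kinetochore is attached, after which the anaphase-promoting complex with CDC20 marks cyclin B and securin for destruction and separase cuts cohesin. These genes are transcribed together late in the cell cycle, through the DREAM and MuvB complexes, B-MYB and FOXM1, which act at the cell cycle homology region (CHR) and at CCAAT boxes bound by NF-Y. In a population of cells their summed RNA follows the share of cells in G2 and mitosis. In these bulk libraries fewer cells of a type and less RNA per cell cannot be told apart.

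RefSeq promoter windows on build GRCm38.p6, from 250 bases before to 50 after a listed start, were matched by symbol to 31 of the 38 members. They were not matched for Ccna2, Cdc25c, Foxm1, Aurkb, Incenp, Tpx2 and Kif20a. A CHR was searched on both strands as the letters TTTGAA. Its other known form, TTTAAA, was searched in the same way and counted together with it. A CCAAT box was searched by the letters of its name, and an E2F-type site as GCGGGAA, also on both strands. The 4 stretches printed here show the arrangement that most members share and a member that lacks the CHR. They run from 120 bases before to 20 after the listed start, read 5′ to 3′ on the gene's strand, with CHR and CCAAT matches on either strand in capitals. Cdc25b was added after its values were seen, and the printed length was set after the motif positions were seen. Top2a lies at chr11:99024170-99024309 (minus strand), Prc1 at chr7:80294331-80294470 (plus strand), Cdc20 at chr4:118437324-118437463 (minus strand) and Cdc25b at chr2:131186828-131186967 (plus strand).
Top2a: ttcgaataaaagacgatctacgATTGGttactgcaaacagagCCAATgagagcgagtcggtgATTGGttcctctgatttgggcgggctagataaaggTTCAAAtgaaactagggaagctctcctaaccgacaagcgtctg
Prc1: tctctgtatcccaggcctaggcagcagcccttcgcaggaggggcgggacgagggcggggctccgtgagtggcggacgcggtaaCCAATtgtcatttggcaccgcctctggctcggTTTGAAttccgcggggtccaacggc
Cdc20: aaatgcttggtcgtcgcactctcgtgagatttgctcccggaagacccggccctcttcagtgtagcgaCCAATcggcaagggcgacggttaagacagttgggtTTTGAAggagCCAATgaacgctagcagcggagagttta
Cdc25b: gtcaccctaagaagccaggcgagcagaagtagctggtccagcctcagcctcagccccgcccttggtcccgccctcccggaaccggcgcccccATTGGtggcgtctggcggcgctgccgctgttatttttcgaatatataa

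In Prc1 the CHR began 5 bases before the listed start and a CCAAT box 37 bases before it. In Cdc20 the corresponding positions were 18 and 53 bases, with a further CCAAT box at 8 bases. In Top2a they were 23 and 58 bases. Cdc25b held a CCAAT box at 28 bases and no CHR match in its window, and its listed start lies 512 bases inside the annotated gene. Over the 31 windows, 26 held a CHR (83.9%) against 30.6% of all 27025 genes in the table. A CCAAT box was in 25 (80.6%, against 41.1%), and both motifs were in 23 (74.2%, against 12.2%). A CHR within 50 bases of the listed start was in 23 (74.2%, against 9.5%), and a CCAAT box that near was in 18 (58.1%, against 15.6%). A CCAAT box beginning 20 to 40 bases upstream of a CHR was in 16 members (51.6%, against 1.6%), at a shortest spacing of 24 to 38 bases. The windows of 50 bases and of 20 to 40 bases were chosen after the positions were seen. The E2F-type sequence was in 0 of 31 windows, against 5.3% of all genes. Besides Cdc25b, the windows of Bub1, Mad2l1, Nusap1 and Pttg1 held no CHR match. A match describes letters in a window and is not evidence of binding.

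**Figure D1:**
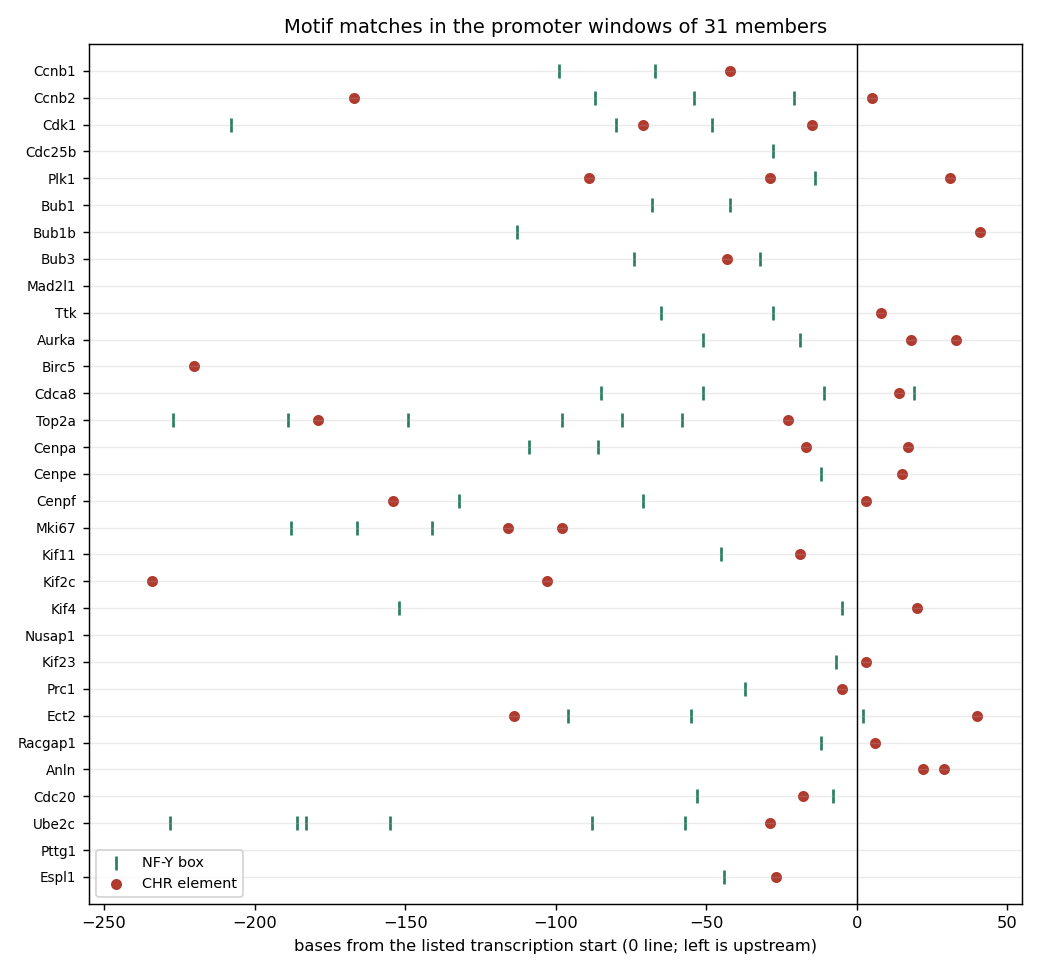
Positions of CHR elements (red points) and CCAAT boxes bound by NF-Y (green bars) in the promoter windows of 31 members, in bases from the listed transcription start, with upstream to the left. In 23 members a CHR lies within 50 bases of the start, and Cdc25b, Bub1, Mad2l1, Nusap1 and Pttg1 show none.

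The SHP2 labels were checked with Ptpn11, the SHP2 gene, and no check of the BCR-ABL1 labels is given. Without BCR-ABL1 its level was 5.79 ± 2.03 FPKM (SD, n = 4) where SHP2 was labelled null and 16.7 ± 0.647 FPKM where it was labelled wild type. With BCR-ABL1 the corresponding levels were 4.52 ± 1.21 and 17.0 ± 0.957 FPKM. The exact two-sided permutation p was 0.0286 in each case, the smallest that 4 against 4 allows. All 14 early B-lineage markers passed the filter, and their summed level was 2756 to 3149 FPKM in null and 2483 to 2595 FPKM in wild-type libraries without BCR-ABL1, and 2585 to 3002 FPKM with it. Each of 7 stromal markers stayed below 1 FPKM in every library, summed T and NK markers reached at most 3.47 FPKM, and summed erythroid and megakaryocyte markers at most 10.7 FPKM. The library labelled SHP2 null without BCR-ABL1, replicate 2, stood apart, with 403 FPKM of the macrophage gene Lyz2 and a summed myeloid level of 534 FPKM, against 34.7 to 78.7 FPKM elsewhere. In that library 29 of the 38 members were at the lowest value of their group. The share of all genes that stood so is not given here, and the part of the myeloid signal was not tested. Read numbers cannot be had from FPKM, and sequencing depth is therefore unknown.

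The members were among the better expressed genes of these cells. Their median level over the 16 libraries was 46.9 FPKM, and the median member stood at the 88.2 percentile of the genes tested. Top2a, which encodes the topoisomerase that untangles sister chromatids, was highest at a mean of 316 FPKM, followed by the proliferation marker Mki67 at 220 FPKM. Among the entry genes, cyclin A2 (Ccna2) averaged 125 FPKM, the cyclins B1 and B2 96.4 and 87.7 FPKM, and their kinase Cdk1 59.7 FPKM. The phosphatase genes Cdc25b and Cdc25c averaged 32.0 and 11.9 FPKM, the kinase Plk1 25.9 FPKM and the transcription factor Foxm1 14.3 FPKM.

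Checkpoint genes ran from 21.3 FPKM for Ttk, the kinase that starts the checkpoint signal, to 81.9 FPKM for Bub3. In the chromosomal passenger complex, survivin (Birc5) averaged 84.9 FPKM, the kinase Aurkb 53.8 FPKM, the scaffold Incenp 49.98 FPKM and borealin (Cdca8) 35.1 FPKM. Of the motors and microtubule binders, the spindle pole separating kinesin Kif11 was highest at 99.0 FPKM and the microtubule depolymerase Kif2c lowest at 29.0 FPKM. The cytokinesis genes ran from 18.1 FPKM for Anln to 51.5 FPKM for Racgap1. Of the exit genes, the ubiquitin-conjugating enzyme Ube2c averaged 115 FPKM and Cdc20 79.2 FPKM, while separase (Espl1) and securin (Pttg1) averaged 12.2 and 9.77 FPKM. Pttg1 was the lowest of all 38.

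**Figure D2:**
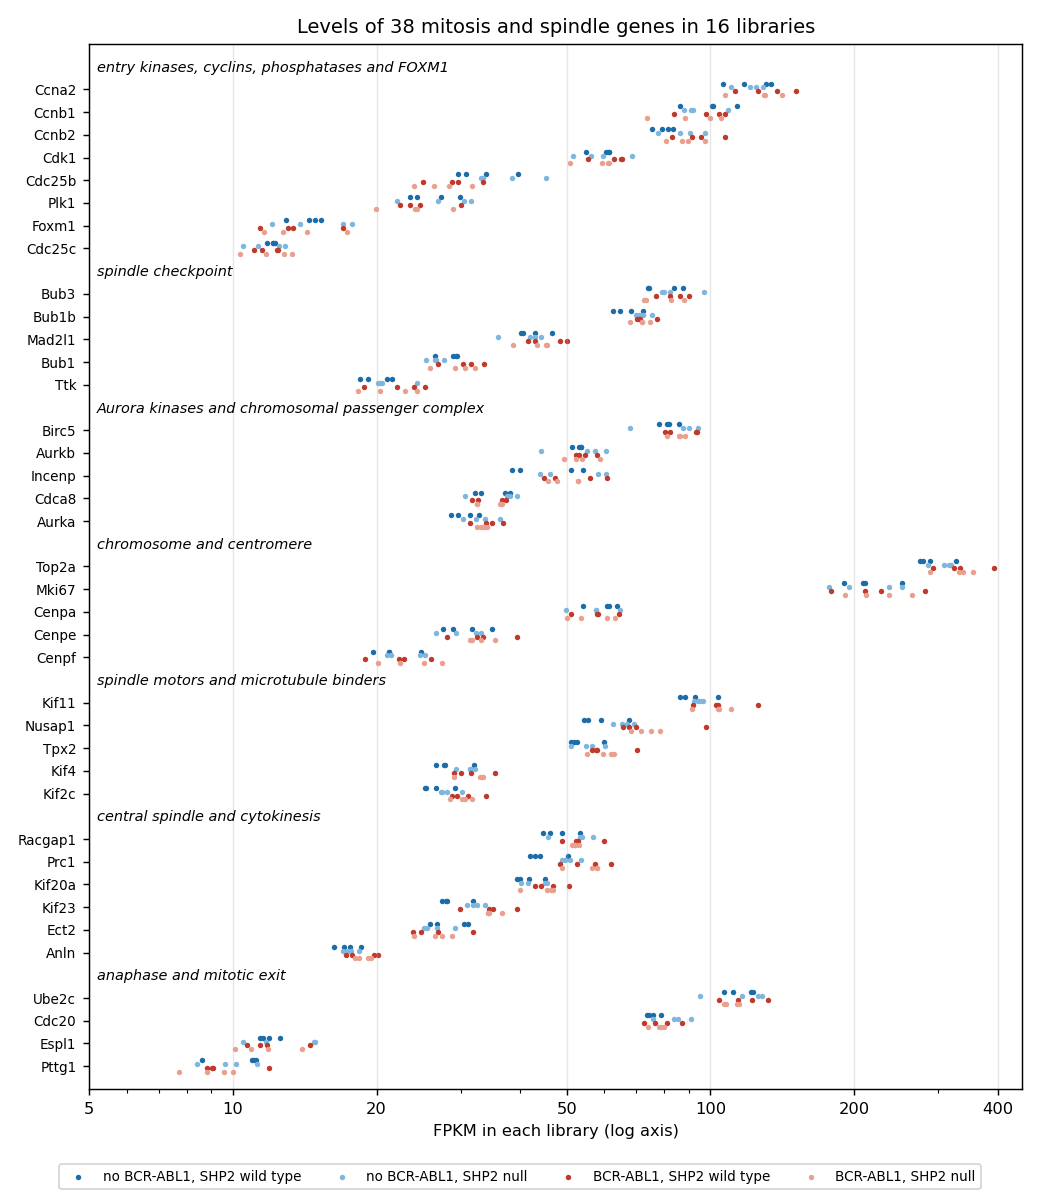
FPKM of each of the 38 members in each of the 16 libraries on a log axis, ordered by role and coloured by group. Levels run from about 9.77 FPKM on average for Pttg1 to 316 FPKM for Top2a, while the 4 groups lie largely on top of each other within each gene.

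The spread within a gene was small beside these differences between genes. The ratio of the highest to the lowest of 16 libraries ran from 1.23 (Anln) to 1.89 (Cdc25b), with a median of 1.39. The median of the same ratio over the 5040 genes with a mean of at least 10 FPKM was 1.46. Every fold change given from here on is a difference in log2(FPKM + 1), with its standard error where shown. Unless another fit or a left-out library is named, it comes from a single limma fit of 4 group means over all 10210 genes. A call is an adjusted p below 0.05 (Benjamini-Hochberg over those genes).

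The comparison of cells with and without BCR-ABL1, both with wild-type SHP2, addressed the difference that the kinase makes where the phosphatase is intact. In the limma fit without a replicate block 0 of 38 members were called, where 4.67% of all genes tested were. At an unadjusted p below 0.05 there were 6 members (Prc1, Kif23, Kif2c, Nusap1, Ccnb2 and Aurka), all higher with BCR-ABL1, where 19.1% of all genes reached that level and 12.1% did so in the higher direction. With the replicate block 5 members were called (13.2%), all higher, where 12.1% of all genes were, 789 of them higher and 442 lower. In that blocked fit 14 members had an unadjusted p below 0.05, all higher, where 1877 genes did so in the higher direction and 1068 in the lower. The groups overlapped for all 38 members, whereas they did not for 11.7% of all genes. The log2 difference was positive in 29 of 38 members, against 59.8% of all genes, with a median of 0.10 against 0.04. The member median was 0.05 when replicate 0 of the group with BCR-ABL1 was left out. It was 0.13 when replicate 0 of the group lacking BCR-ABL1 was left out. By role, the differences were positive in 5 of 5 checkpoint genes, 5 of 5 motors and microtubule binders and 5 of 6 cytokinesis genes, and negative in 5 of 8 entry genes. None of these members passed in the fit without a replicate block. Mast cell markers moved with this comparison, their sum being 8.11 to 13.9 FPKM without and 1.05 to 3.71 FPKM with BCR-ABL1, and their part in the differences was not tested.

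Prc1, which bundles the antiparallel microtubules of the central spindle, read 50.4, 41.9, 43.9 and 43.0 FPKM in replicates 0 to 3 without BCR-ABL1 and 61.9, 48.4, 52.5 and 57.2 FPKM with it. Each library with BCR-ABL1 was above the library of the same number without it, but replicate 0 without BCR-ABL1 lay above replicate 1 with it. The log2 difference was 0.29 ± 0.08 (SE, adjusted p = 0.0659), with a 95% interval of 0.11 to 0.47. Kif23, the kinesin of the centralspindlin complex, read 31.8, 28.1, 28.01 and 27.4 FPKM without and 39.3, 34.4, 29.9 and 35.0 FPKM with BCR-ABL1. It too was higher in each same-numbered library, and the ranges overlapped through replicate 0 without BCR-ABL1 and replicate 2 with it. Its difference was 0.25 ± 0.08 (SE, adjusted p = 0.0687). Whether these 2 genes passed depended on the setting. For this comparison the replicate numbers were not taken as pairing. With them as a block both genes passed (adjusted p = 0.00932 and 0.00924, where 12.1% of all genes were called). With all libraries kept they passed with library weights estimated from the data (adjusted p = 0.0120 and 0.0386, where 8.2% of all genes were called) and after a GC correction added once the data had been seen (adjusted p = 0.00789 and 0.0498, where 6.29% were). Without replicate 0 of the group without BCR-ABL1 they also passed (adjusted p = 0.0372 and 0.0419, where 4.35% were). Prc1 also passed when replicate 1 of the group with BCR-ABL1 was left out (0.35, adjusted p = 0.0348). Kif23 also passed when replicate 2 of that group was left out (0.32, adjusted p = 0.0251).

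Kif2c read 29.2, 26.7, 25.2 and 25.4 FPKM without and 33.9, 29.5, 28.8 and 31.02 FPKM with BCR-ABL1, a difference of 0.20 ± 0.07 (SE, adjusted p = 0.1002). The ranges met only where replicate 0 without BCR-ABL1 exceeded replicate 2 with it. Nusap1, a spindle microtubule stabiliser, read 67.7, 55.5, 59.0 and 54.2 FPKM without and 97.7, 65.5, 67.5 and 69.7 FPKM with BCR-ABL1, a difference of 0.33 ± 0.11 (SE, adjusted p = 0.107). Replicate 0 with BCR-ABL1 stood well above the other 3 of its group, and without that library the difference was 0.19. With the replicate number as a block Kif2c and Nusap1 were called (adjusted p = 0.0127 and 0.0152, where 12.1% of all genes were). Aurka, the spindle pole kinase, read 31.4, 32.8, 28.6 and 29.6 FPKM without and 31.4, 35.0, 33.8 and 36.8 FPKM with BCR-ABL1. The groups overlapped, and the difference was 0.16 ± 0.07 (SE, adjusted p = 0.213).

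Top2a read 327, 275, 289 and 278 FPKM without and 393, 292, 324 and 333 FPKM with BCR-ABL1. Replicate 0 was the highest library in both groups, and the difference was 0.19 ± 0.10 (SE, adjusted p = 0.300), or 0.12 without replicate 0 of the BCR-ABL1 group. Ccnb2 averaged 79.9 ± 3.46 FPKM (SD, n = 4) without and 94.3 ± 10.1 FPKM with BCR-ABL1, a difference of 0.23 ± 0.09 (SE, adjusted p = 0.158). Over all members the 95% intervals reached from -0.45 (Cdc25b) to 0.56 (Nusap1), and 37 of 38 lay within 0.5 of 0. Incenp read 54.05, 51.2, 38.3 and 39.8 FPKM without and 60.6, 56.03, 44.8 and 47.2 FPKM with BCR-ABL1. It was higher in each same-numbered library, the groups overlapped widely, and the difference was 0.19 ± 0.13 (SE, adjusted p = 0.494). With the replicate number as a block Incenp was called (adjusted p = 0.0446, where 12.1% of all genes were). Kif23, Nusap1 and Ccnb2 were chosen for mention after their values were seen.

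**Figure D3:**
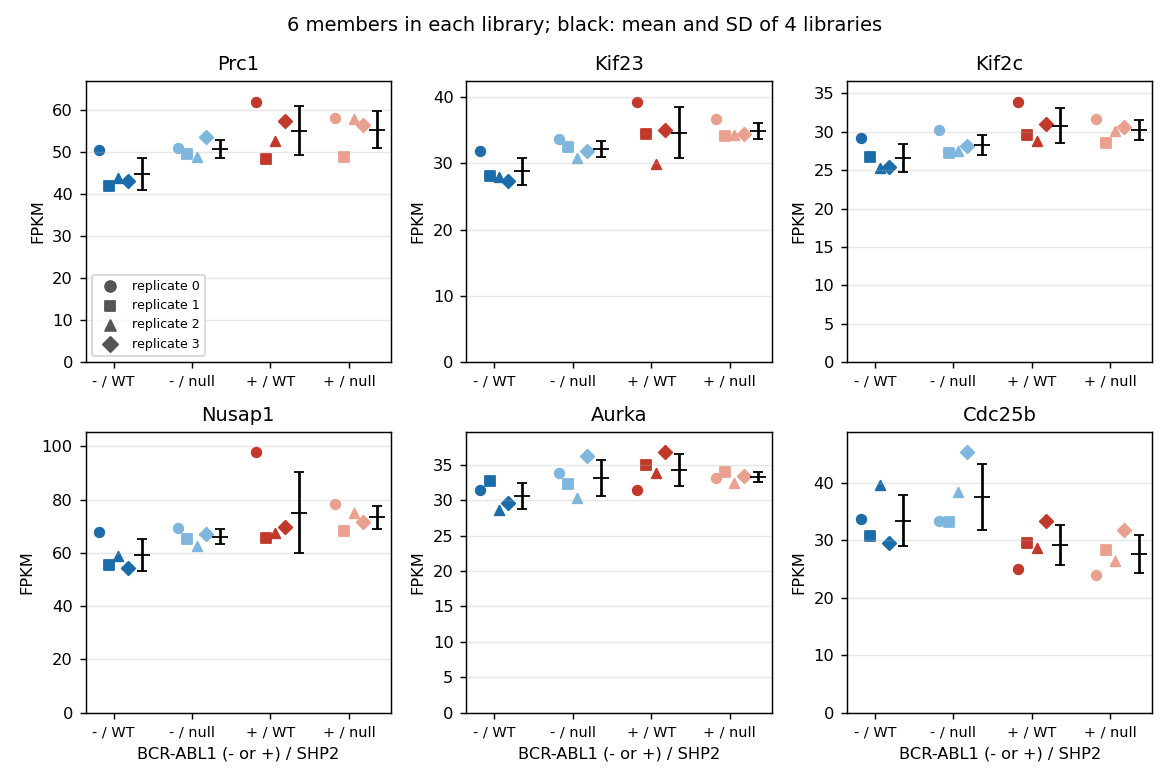
FPKM of 6 members in each library, with group on the x axis (BCR-ABL1 absent or present, SHP2 wild type or null), the replicate number as the marker shape, and the mean and SD of 4 libraries in black. Prc1, Kif23, Kif2c and Nusap1 average more with BCR-ABL1 in the SHP2 wild-type groups, with overlapping ranges, and Cdc25b in SHP2-null cells is at 24.0 to 31.8 FPKM with BCR-ABL1 and 33.1 to 45.3 FPKM without it.

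The same comparison within SHP2-null cells gave 0 of 38 members called in the unblocked fit, where 1.26% of all genes tested were. With the replicate block 1 was called, Cdc25b, where 5.27% of all genes were. A single member, Cdc25b, had an unadjusted p below 0.05 in the unblocked fit, where 13.5% of all genes did and 6.89% did so in the lower direction. With the block Plk1 (lower, unadjusted p = 0.00651) and Bub1 (higher, unadjusted p = 0.0314) did too, where 1282 of all 10210 genes did so in the lower direction and 1084 in the higher. Groups did not overlap for 2 members, Cdc25b (lower with BCR-ABL1) and Kif23 (higher), where 7.07% of all genes showed this, 3.31% lower and 3.76% higher. The difference was positive in 22 of 38 members, against 47.6% of all genes, with a median of 0.01 against -0.01. With 1 library left out the median ran from -0.02, without the library high in Lyz2, to 0.05, without null replicate 3 of the group lacking BCR-ABL1, and 0 members were called in any of these fits. After quantile normalization it was 0.04, so its direction was not fixed.

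Cdc25b encodes the phosphatase that first activates CDK1 with cyclin B at the centrosome. In SHP2-null cells it read 33.4, 33.1, 38.5 and 45.3 FPKM without BCR-ABL1 and 24.0, 28.3, 26.4 and 31.8 FPKM with it. Every library with BCR-ABL1 was below every library without it. The difference was -0.43 ± 0.12 (SE, adjusted p = 0.117), with a 95% interval of -0.68 to -0.17, and it was -0.41 without the library high in Lyz2 (adjusted p = 0.158). Same-numbered libraries deviated together in this comparison, so the fit with the replicate number as a block is given beside it. In that fit Cdc25b fell with BCR-ABL1 (adjusted p = 0.0323), the only member called, where 5.27% of all genes were and 2.75% were lower. With a correction for GC content in the same blocked fit the adjusted p was 0.0840. The rank correlation across genes between GC content and a library's deviation from the gene means differed between these groups. It averaged 0.292 without and -0.104 with BCR-ABL1, with overlapping libraries, and its part in the difference was not tested.

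In SHP2 wild-type cells Cdc25b read 33.8, 30.8, 39.6 and 29.6 FPKM without and 25.04, 29.6, 28.8 and 33.4 FPKM with BCR-ABL1. These ranges overlapped, and the difference was -0.19 ± 0.12 (SE, adjusted p = 0.437). The difference between the effects in null and wild-type cells was -0.24 ± 0.17 (SE, adjusted p = 0.874), so an unequal response of Cdc25b was not shown. The 95% interval of that difference ran from -0.60 to 0.13.

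Bub1, the checkpoint kinase, read 26.6, 26.6, 25.3 and 27.6 FPKM without and 30.6, 25.9, 32.1 and 29.2 FPKM with BCR-ABL1 in SHP2-null cells. Replicate 1 with BCR-ABL1 lay among the libraries without it, and the difference was 0.14 ± 0.08 (SE, adjusted p = 0.447). Kif23 read 33.7, 32.4, 30.9 and 31.8 FPKM without and 36.6, 34.2, 34.3 and 34.4 FPKM with BCR-ABL1. Its 2 groups were apart by a narrow margin, and the difference was 0.11 ± 0.08 (SE, adjusted p = 0.560). Differences were negative in 4 of 4 exit genes, at -0.11 for Cdc20, -0.06 for Ube2c, -0.12 for Pttg1 and -0.13 for Espl1, and none of the 4 passed the test.

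The comparison of SHP2-null with SHP2 wild-type cells that carry BCR-ABL1 addressed the loss of the phosphatase in the presence of the kinase. Of 38 members 0 were called by limma, where 0.313% of all genes tested were. At an unadjusted p below 0.05 there were also 0 members, where 3.65% of all genes reached it, and groups overlapped for all 38, where 3.1% of all genes did not overlap. With the replicate block 0 members were called, where 0.47% of all genes were. The difference was negative in 30 of 38 members, against 57.3% of all genes, with a median of -0.03 against -0.02. That median was 0.03 after quantile normalization. It was 0.01 with replicate 0 of the wild-type group left out and -0.06 with replicate 2 of that group left out, so its direction was not fixed. The largest negative difference was in Ccnb1, at -0.10 ± 0.12 (SE), with SHP2-null libraries at 91.7 ± 14.01 FPKM (SD, n = 4) and wild-type libraries at 98.2 ± 10.3 FPKM. The largest positive difference was in the kinetochore gene Cenpf, at 0.08 ± 0.11 (SE), with means of 23.8 and 22.5 FPKM.

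The intervals bound what such data could miss. In SHP2 loss with BCR-ABL1 every interval lay within 0.5 of 0, the lowest bound being -0.36 (Ccnb1) and the highest 0.34 (Mki67). For Ccnb1 the interval covers a change of -21.8% to 10.7% in FPKM + 1. Mki67 read 282, 228, 179 and 210 FPKM with SHP2 and 264, 237, 212 and 191 FPKM without SHP2, all with BCR-ABL1. Its group means were 225 ± 43.2 and 226 ± 31.5 FPKM (SD, n = 4), and the ranges overlapped almost fully.

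In cells without BCR-ABL1 SHP2 loss gave 0 of 38 members called, where 1.54% of all genes tested were, and 0 with the replicate block, where 5.75% were. No member had an unadjusted p below 0.05 in the unblocked fit, where 16.1% of all genes did, and 6 did with the block, where 26.5% did. Groups overlapped for all 38 members, whereas 9.09% of all genes did not overlap. The difference was positive in 27 of 38 members, against 55.9% of all genes, with a median of 0.05 against 0.02, or 0.10 without the library high in Lyz2 and 0.02 without null replicate 0. Cdc20, the activator of the anaphase-promoting complex, read 75.9, 78.9, 74.3 and 73.6 FPKM with SHP2 and 91.1, 83.8, 75.8 and 85.4 FPKM without it. The low null value came from the library high in Lyz2, which overlapped the wild-type range. The difference was 0.15 ± 0.07 (SE, adjusted p = 0.318), and 0.19 without that library (adjusted p = 0.265).

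Prc1 showed the smallest p of the unblocked fit in this comparison. It read 50.9, 49.5, 48.8 and 53.6 FPKM in null cells, against the wild-type values given above, a difference of 0.18 ± 0.08 (SE, adjusted p = 0.314). Wild-type replicate 0 lay within the null range. With the replicate block the adjusted p of Prc1 was 0.0889. The smallest was then that of Incenp, 0.0662, at a difference of 0.18 ± 0.06 (SE), and neither gene was called. GC content moved in part with this comparison too. The rank correlation across genes between GC content and a library's deviation from the gene means was 0.454, 0.467, 0.197 and 0.0515 in null replicates 0 to 3 and -0.376, 0.340, -0.185 and 0.0577 in wild-type replicates. The groups overlapped, with means of 0.292 and -0.0408. After the GC correction Prc1 was called at 0.21 ± 0.05 (SE, adjusted p = 0.0484), where 1.82% of all genes were. In the same corrected fit with the block Kif23 was also called (adjusted p = 0.0496), where 5.82% were. The part of GC content and of the myeloid signal in these differences was not tested.

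**Figure D4:**
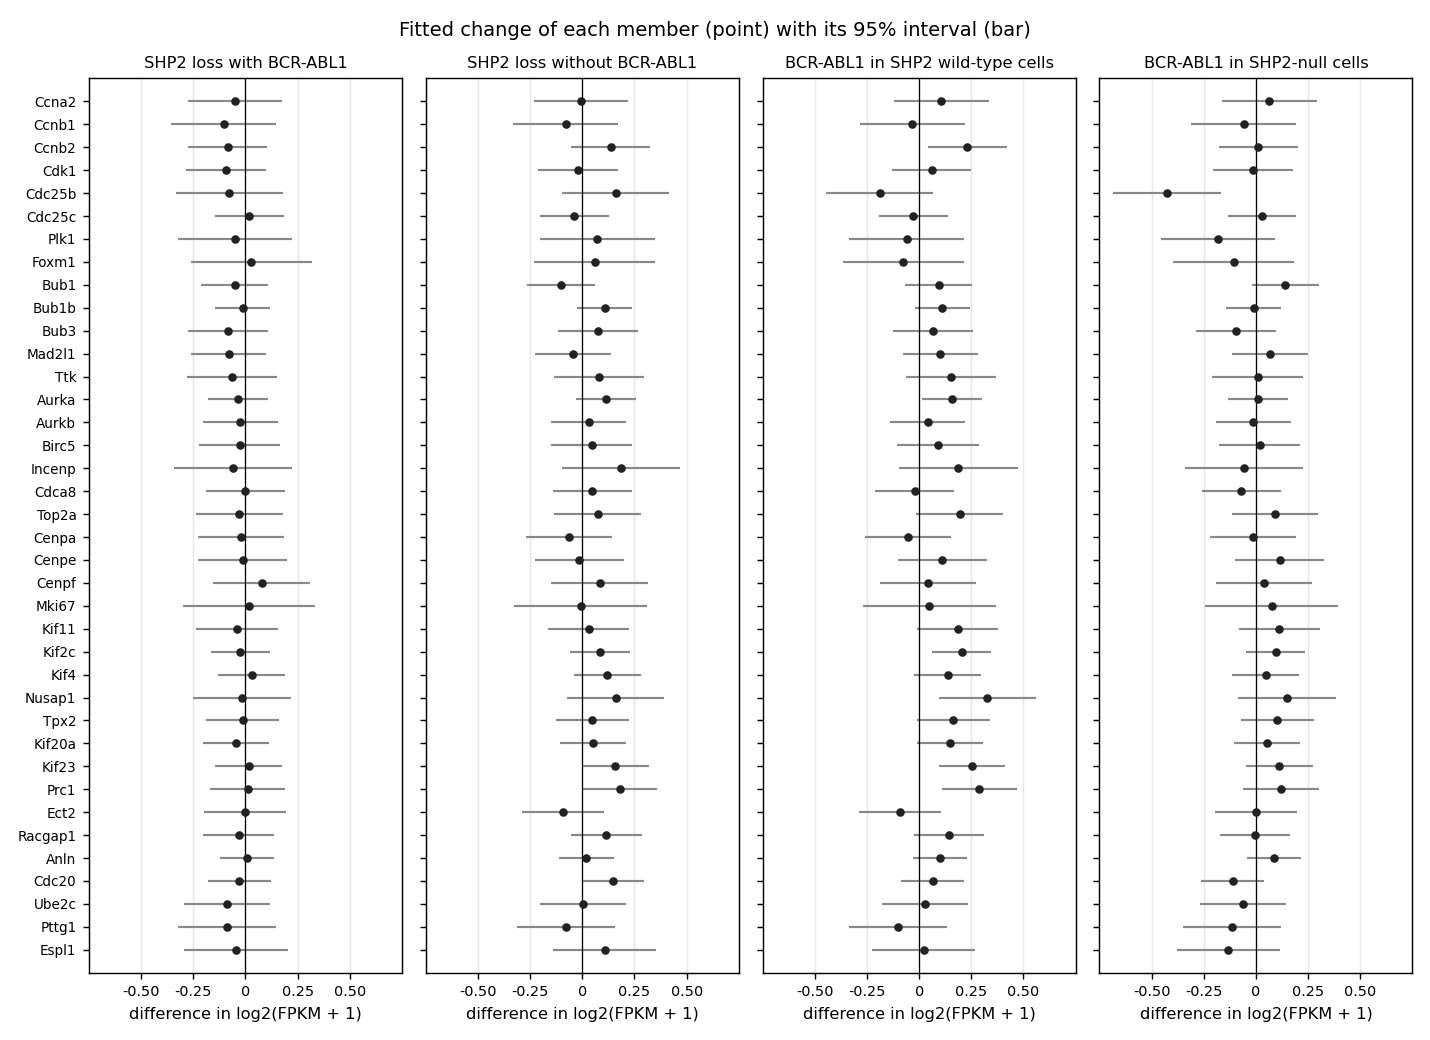
Fitted difference of each of 38 members (points) with its 95% interval (bars) in log2(FPKM + 1), in 4 comparisons named above the panels. Nearly all intervals cross 0, those that do not being Cdc25b in SHP2-null cells and 6 members higher with BCR-ABL1 in SHP2 wild-type cells. None of these passed after adjustment in the fit shown, which has no replicate block.

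Whether the effect of SHP2 loss depended on BCR-ABL1 was tested by the interaction. It called 0 of 38 members and 0% of all genes, with and without the replicate block, and in the unblocked fit 0 members had an unadjusted p below 0.05, where 5.79% of all genes did. With the block 3 did (Incenp, Cdc20 and Ccnb2, all negative), where 12.3% of all genes did. The interaction was negative in 32 of 38 members, against 60.3% of all genes, with a median of -0.08 against -0.04. The member median was -0.13 without the library high in Lyz2. It was -0.04 when replicate 0 of the wild-type group with BCR-ABL1 was left out. After quantile normalization it was -0.01. Estimates ran from -0.24 for Incenp to 0.09 for the cytokinesis gene Ect2, and 33 of 38 intervals lay within 0.5 of 0. The comparisons share groups, since the wild-type libraries without BCR-ABL1 serve both the BCR-ABL1 effect and the SHP2 effect, and their differences are therefore not independent.

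the mean log2(FPKM + 1) of the 38 members in each library summarised the same result. Without BCR-ABL1 it averaged 5.48 ± 0.0696 (SD, n = 4) where SHP2 was wild type and 5.53 ± 0.0914 where it was null. With BCR-ABL1 it averaged 5.57 ± 0.0902 and 5.54 ± 0.0425 in that order. The group means spanned less than the libraries of a group did. The highest score, 5.68, was in BCR-ABL1 wild-type replicate 0, and the lowest, 5.40, in the library high in Lyz2.

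The replicate number given in the labels followed the members more closely than the genotype did, as it did for most genes of at least 10 FPKM. Of each member's variation over the 16 libraries (sum of squares of the log2 values), the replicate number held a median of 44.7% and the group 17.9%. The corresponding medians over the 5040 genes of at least 10 FPKM were 40.6% and 23.9%. The replicate number held more than the group in 28 of 38 members, or 73.7%, where 66.3% of those genes showed this. Replicate 0 held the highest value in all 4 groups for 10 members (Bub1b, Incenp, Cenpe, Cenpf, Mki67, Kif2c, Nusap1, Tpx2, Kif23 and Anln). Replicate 1 held the lowest value in all 4 groups for Ccnb1, Ttk and Kif4. The shares of all genes with such patterns are not given here, so these counts do not set the members apart. The rank correlation with GC content was also highest in replicate 1 of all 4 groups, at 0.340 to 0.467, and its part in the pattern was not tested.

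Mki67 gave 82.2% of its variation to the replicate number and 2.61% to the group, with replicate 0 at 252, 252, 282 and 264 FPKM and replicate 2 at 209, 177, 179 and 212 FPKM over the 4 groups. Plk1 behaved otherwise, with its highest value in replicate 1 and its lowest in replicate 2 of every group. It read 29.9, 31.5, 30.1 and 28.9 FPKM in replicate 1 and 23.4, 22.0, 22.4 and 19.9 FPKM in replicate 2. Incenp read 54.0, 60.3, 60.6 and 52.8 FPKM in replicate 0 and 38.3, 44.0, 44.8 and 45.7 FPKM in replicate 2. In each of these 3 genes the replicates named did not overlap across groups. By contrast Kif23, Prc1, Kif2c and Cdc25b gave 61.1%, 59.0%, 56.3% and 53.1% to the group. The labels say that sets of 4 libraries, 1 of each group, were loaded together, but not that the replicate number marks a set. Mki67, Plk1 and Incenp were chosen after their values were seen.

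**Figure D5:**
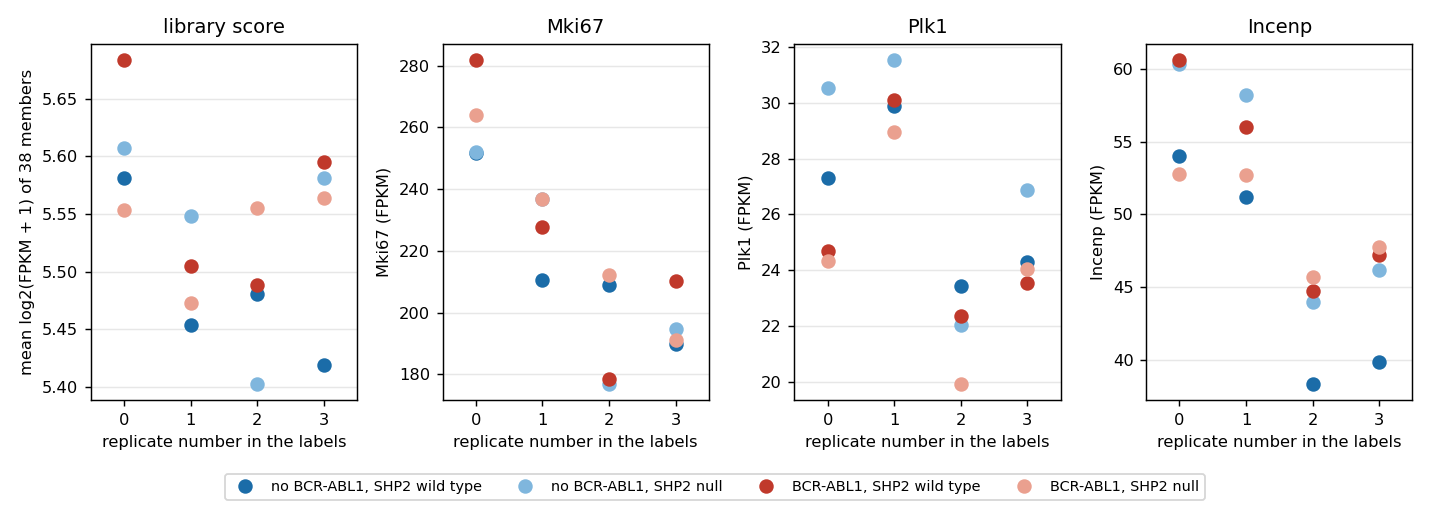
The score of 38 members (mean log2(FPKM + 1)) and the FPKM of Mki67, Plk1 and Incenp by the replicate number in the labels, 1 point per library, coloured by group. Mki67 is highest in replicate 0 in all 4 groups, and Plk1 is highest in replicate 1 and lowest in replicate 2 in all 4.

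Another 106 genes of mitosis, in lists of kinetochore and centromere, spindle and motor, cohesin, condensin and anaphase-promoting complex, and mitotic entry and MuvB genes, are given by their calls, with the share of all genes called in brackets. With SHP2 loss 0 were called in cells with BCR-ABL1 (0.313%), and 0 had an unadjusted p below 0.05. Without BCR-ABL1 2 rose, or 1.89% of the 106 (1.54%), the checkpoint silencing gene Mad2l1bp at 0.30 ± 0.06 (SE, adjusted p = 0.0230) and Fam64a at 0.46 ± 0.10 (SE, adjusted p = 0.0230). The replicate block added Mad1l1, the checkpoint partner of Mad2l1 (adjusted p = 0.0169), and the cyclin F gene Ccnf (adjusted p = 0.0206), which makes 3.77% of the 106 (5.75%). With BCR-ABL1 in SHP2 wild-type cells 1 rose in the unblocked fit, or 0.943% (4.67%), the MuvB subunit gene Lin52, at 0.28 ± 0.07 (SE, adjusted p = 0.0381). There the replicate block called 16, or 15.1% (12.1%), 14 higher and 2 lower, where 789 of all 10210 genes were called higher and 442 lower. In SHP2-null cells 0 were called in the unblocked fit (1.26%). In that last comparison the replicate block called 2, or 1.89% (5.27%), both lower, Gtse1 at -0.45 ± 0.08 (SE, adjusted p = 0.0105) and Mybl2, the B-MYB gene, at -0.38 ± 0.08 (SE, adjusted p = 0.0228). The interaction called 0 of the 106 (0%).

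Genes of DNA replication (41 tested), which act a phase earlier, are given beside them. In SHP2 loss with BCR-ABL1 their median difference was -0.11 and 39 of 41 were negative, against -0.03 and 30 of 38 for the mitosis members. BCR-ABL1 in SHP2 wild-type cells gave medians of 0.11 for the replication genes and 0.10 for the members, and the replication helicase gene Cdc45 rose (0.22 ± 0.06, SE, adjusted p = 0.0440), 2.44% of the list where 4.67% of all genes were called. In SHP2 loss without BCR-ABL1 30 of 41 were positive, with a median of 0.04 against 0.05 for the members. There 0 were called without the block, and with it E2f2 and Uhrf1 rose (adjusted p = 0.00839 and 0.0176), 4.88% of the list where 5.75% of all genes were called. In SHP2-null cells the medians were -0.07 and 0.01. The interaction was negative in 40 of 41 replication genes, with a median of -0.17, and called 0 of them. The difference between the replication and the mitosis medians was not tested.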

How the data were processed

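PolyA RNA of murine pre-B cells was measured in 16 libraries, 4 in each of 4 groups, taken from the sample labels. The values deposited by the authors are FPKM per gene, made with Bowtie and Cufflinks on mm10 (GRCm38), per the submitters' processing notes. The tool versions, annotation and filters behind them were not given in the sources used here. All 16 single-library files matched its column of the joint table, and 0 columns of the table were left unmapped.

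From these values, 733 entries sharing 254 symbols were summed by symbol (none is a member), the filter kept genes that reached 1 FPKM in 4 or more libraries, and log2(FPKM + 1) was fitted with limma 3.58.1 (R 4.3.3) as 4 group means over all 16 libraries, with Benjamini-Hochberg adjustment over 10210 genes. FPKM are not counts, so no count model was used. Summed FPKM ran from 348923 to 443702 per library, and the number of reads is unknown. The procedure was tested on simulated data with independent spread between libraries. That simulation held no effect of the replicate number, so it does not cover the replicate pattern seen here. Other tools were Python 3.11.15, pandas 2.3.3, numpy 2.4.6 and matplotlib 3.10.9.

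The members and the other gene lists were chosen with earlier results of these data known. Values in every library of the groups compared are given for members called in any comparison, with or without the block, and in each of 7 roles for the member with the smallest unadjusted p. Members added after their values were seen are named as such. Of the other lists, up to 3 called genes per list and comparison are named.

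Groups share replicate numbers 0 to 3. The deviations of same-numbered libraries from their group means correlated across genes at 0.218 to 0.783 for SHP2 loss with BCR-ABL1, 0.189 to 0.510 without it, and 0.242 to 0.680 for BCR-ABL1 in SHP2-null cells. All 4 pairs were therefore taken as paired in these comparisons, from the data and not from the labels. The calls are given there with and without the block, and the intervals are those without it. For BCR-ABL1 in SHP2 wild-type cells the correlations were 0.643, 0.488, 0.338 and 0.0549 in replicates 0 to 3. Because of the lowest of them the numbers were not taken as pairing there, and the block is given only as an alternative. The block was a single term over all 16 libraries, and so the same fit in every comparison. Whether 0 or 5 members were called for BCR-ABL1 in SHP2 wild-type cells depended on this choice. Alternatives were other pseudocounts, filters, scalings, library weights and samples in the fit, the replicate block, and leaving out each library. A correction for GC content was added after the data were seen.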

Additional observations from a re-analysis of the deposited data

Results flagged for a closer look

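Of 52 groups of 4 libraries tested for a library far from the others, 5 had one, where chance alone gives about 1 in 20. Prc1 in BCR-ABL1 SHP2-null replicate 1 was low at 48.9 FPKM, the nearest library of its group being at 56.5 FPKM. Nusap1 in BCR-ABL1 SHP2 wild-type replicate 0 was high at 97.7 FPKM, the nearest being at 69.7 FPKM. Kif23 was high in replicate 0 of 2 groups, at 31.8 FPKM in SHP2 wild-type cells without BCR-ABL1 (nearest 28.1 FPKM) and at 36.6 FPKM in SHP2-null cells with it (nearest 34.4 FPKM). The score over the 38 members was low in BCR-ABL1 SHP2-null replicate 1, at 5.47 against 5.55 for the nearest library.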

How the results depend on the processing

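Over 28 alternatives per result (16 leaving out 1 library each and 12 others), the number of members called stayed at 0 for SHP2 loss with BCR-ABL1 and for the interaction. For BCR-ABL1 in SHP2 wild-type cells it was 3 with library weights estimated from the data (Prc1, Kif23 and Ccnb2, 8.2% of all genes), 5 with the replicate block (Kif23, Prc1, Kif2c, Nusap1 and Incenp, at adjusted p = 0.00924, 0.00932, 0.0127, 0.0152 and 0.0446, and 12.1% of all genes), 2 with the GC correction (Prc1 and Kif23, 6.29% of all genes), 4 with the GC correction and the replicate block together (15.5%), and 0 to 2 when 1 library was left out. The 5 called there with the replicate block were all higher with BCR-ABL1, where 789 of all 10210 genes were called higher and 442 lower. For BCR-ABL1 in SHP2-null cells the number of members called was 5 with library weights (Bub1 higher, and Cdc25b, Espl1, Foxm1 and Plk1 lower, 18.2% of all genes) and 1 with the replicate block (Cdc25b, 5.27%). For SHP2 loss without BCR-ABL1 it was 1 with the GC correction (1.82%) and 2 with the GC correction and the replicate block together (5.82%). The cause of these differences was not tested.

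The replicate block moved the calls over all genes from 477 to 1231 for BCR-ABL1 in SHP2 wild-type cells, where the numbers were not taken as pairing, from 129 to 538 in SHP2-null cells, from 157 to 587 for SHP2 loss without BCR-ABL1 and from 32 to 48 with it. Library weights gave 837 and 1861 calls for BCR-ABL1 in wild-type and SHP2-null cells. Of the 106 other mitosis genes the block called 16 in SHP2 wild-type cells, 14 higher and 2 lower with BCR-ABL1, or 15.1%, where 12.1% of all genes were called. In 10 of 16 libraries the best correlation was with libraries of the same number. Among members, the block changed no call other than those named. Cdc25b in SHP2-null cells passed in 2 of 28 alternatives, with adjusted p from 0.0323 to 0.338. The intervals given are those of the unblocked fit. Outside the interaction its median SE over the members was 0.091, against 0.067 with the replicate block. With 4 libraries a group and no read counts, differences inside these intervals could go undetected in the unblocked fit.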
